A study of Mus musculus with 10 samples.

Results

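The genes described here encode the ligands, receptors, Smad proteins, antagonists and direct targets of transforming growth factor beta (TGF-beta) and bone morphogenetic protein (BMP) signalling. They were taken from a list of 51 gene symbols chosen by known function, though with earlier results of these data known. Of these, 50 were measured, out of 22180 named genes. Each of the 50 was represented by 1 probe set, a group of short DNA probes on the array that together read 1 transcript. Gdf15 is not analysed here. Values are log2 expression values as deposited, so a difference of 1 means a doubling of signal.

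TGF-beta, activin and BMP proteins are secreted dimers that bring type I and type II receptor kinases together at the cell surface. The active receptors phosphorylate Smad proteins, Smad2 and Smad3 for TGF-beta and activin and Smad1, Smad5 and Smad9 for BMPs, which join Smad4 and enter the nucleus. In fibroblasts TGF-beta is known for driving matrix production and contractile gene expression, while BMPs induce the Id genes and their own inhibitors, among them Smad6. Noggin, chordin, gremlin and follistatin bind ligands outside the cell and keep them from their receptors.

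Total RNA was measured on one-colour Affymetrix arrays in cultured primary fibroblasts of the mouse (MEFs), matrix-producing cells grown from the back skin of mid-gestation embryos. There were 5 arrays of Zbtb4 knock-out cells, whose series title gives the genotype as Zbtb4 -/-, and 5 arrays of wild-type cells. The comparison asked which transcripts depend on Zbtb4, a zinc finger protein that binds methylated DNA. The labels give no strain, passage number or treatment, do not say which part of Zbtb4 is deleted, and do not state whether arrays 1 to 5 of a genotype stand for different embryos. Y-linked levels, given below, were high on some arrays of each genotype and low on others. The arrays of a genotype are therefore not all repeats of a single embryo, but some of them may be. The p-values reflect the spread among these RNA samples, which may be partly technical.

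Zbtb4 itself read 5.44, 5.76, 5.04, 5.62 and 5.39 on knock-out arrays 1 to 5, and 6.06, 6.03, 5.94, 6.23 and 6.11 on wild-type arrays 1 to 5. All knock-out arrays lay below all wild-type arrays, with array 3 the lowest of the knock-outs and array 2 the highest. Its difference was -0.62 ± 0.12 (SE; exact two-sided permutation p = 0.00794, the smallest that 5 against 5 arrays can give; limma adjusted p = 0.628). Array medians lay between 3.89 and 3.93. Fibroblast markers (10 genes, such as Col1a1 and Pdgfra) averaged 8.85 to 9.13 on knock-out arrays and 8.76 to 9.26 on wild-type arrays, and 0 of the 10 fell below the array median on every array. Single markers varied unequally between arrays. Col1a1 read 10.42 to 10.53 in the knock-out and 10.26 to 10.47 in the wild type. Pdgfra read 6.37 to 7.74 in the knock-out and 6.44 to 8.12 in the wild type, and was lowest on knock-out array 3. Of 10 endothelial markers, 8 were below the array median on all arrays, while Emcn was above it on all, at 5.72 to 6.89 in the knock-out and 5.93 to 7.15 in the wild type, and Kdr on 8. Among the 8, Cdh5, the endothelial cadherin, read 3.23 to 3.84 on knock-out arrays and 2.80 to 3.17 on wild-type arrays (difference 0.61; limma adjusted p = 0.628), and Esam did not overlap either (3.07 to 3.23 in the knock-out, 2.80 to 3.06 in the wild type). Their part in the values below was not tested. Y-linked genes (3 measured) averaged 5.89 and above on arrays 1 and 3 of each genotype and 2.78 and below on the other 6 arrays.

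None of the 50 TGF-beta and BMP genes passed the test between genotypes. With limma, 0 of 50 had an adjusted p under 0.05, against 0 of all 22180 genes (0%), and the smallest adjusted p among them was 0.821. At an unadjusted p under 0.05 there were 5, Smad5, Chrd, Tgfb3, Tgfb2 and Acvr2b, against 1326 of all genes (5.98%). Of these, 4 had the higher mean in knock-out cells (all genes, 3.25%) and Smad5 the lower (all genes, 2.73%). The arrays of the genotypes overlapped for all 50, while 219 of all genes (0.987%) had no overlap. Differences ran from -0.25 to 0.25, with 22 genes having the higher mean in knock-out cells and 28 the lower, and their median was -0.010 (all genes, 0.0020, 50.7% of them with the higher mean in knock-out cells). For 46 of the 50, and for 21240 of all 22180 genes, the 95% interval of the difference lay within a 1.5-fold change in either direction. The exceptions among the 50 were Grem1, Bmp5, Atoh8 and Fst. In RNA of whole cultures, fewer cells of a type and less RNA per cell cannot be told apart.

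**Figure D1:**
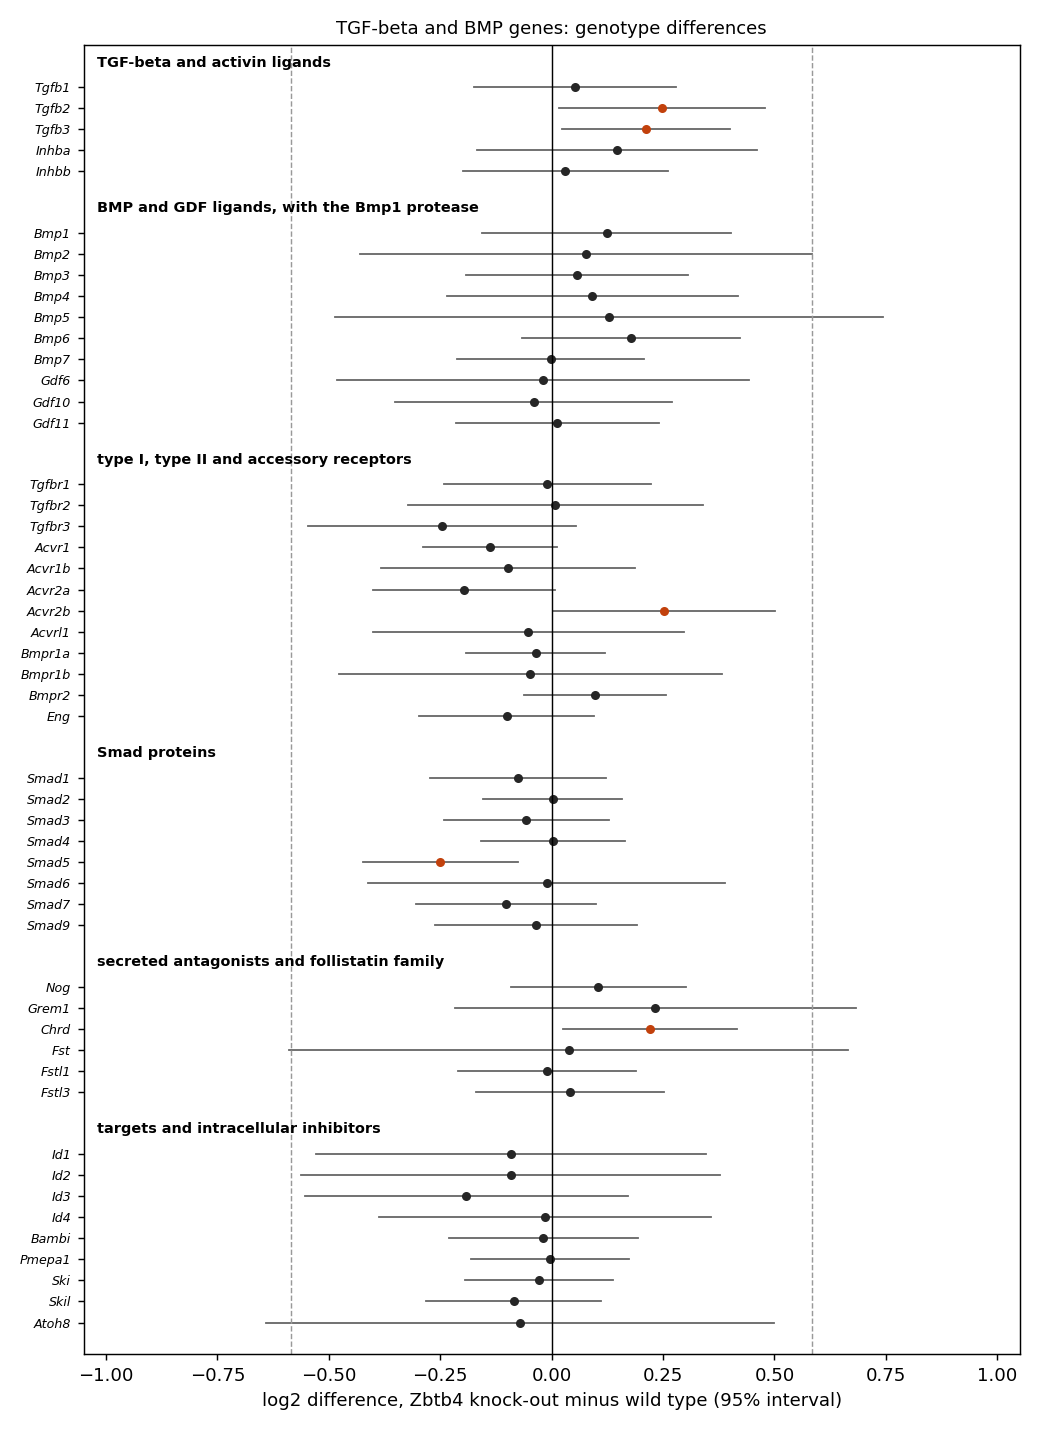
Difference in mean log2 value, Zbtb4 knock-out minus wild type, for each of the 50 genes grouped by role (points), with 95% limma intervals (bars); 5 arrays per genotype. Dashed lines mark a 1.5-fold change and coloured points an unadjusted p under 0.05; Smad5 lies lowest within its group at -0.25, and all adjusted p-values are 0.821 or above.

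The TGF-beta and activin ligands had the higher mean in knock-out cells in 5 of 5 cases, with a median difference of 0.15, though Inhbb turned in some fits that left out 1 array, and none passed the test. Tgfb2, the isoform best known from heart and craniofacial development, read 7.34, 7.29, 7.27, 7.57 and 7.59 on knock-out arrays 1 to 5, and 7.30, 7.45, 7.03, 6.99 and 7.05 on wild-type arrays 1 to 5. Knock-out arrays 4 and 5 lay above every wild-type array, while wild-type arrays 1 and 2 lay among the knock-outs. The difference was 0.25 ± 0.11 (SE; exact permutation p = 0.0714; limma p = 0.0381, adjusted p = 0.823). Tgfb3, needed for fusion of the palate, read 9.04, 9.15, 8.99, 8.95 and 8.73 in the knock-out, and 8.83, 8.85, 8.76, 8.73 and 8.63 in the wild type. Its first 4 knock-out arrays exceeded every wild-type array, and array 5 did not. Tgfb3 differed by 0.21 ± 0.087 (SE; exact permutation p = 0.0397; limma adjusted p = 0.821). For Tgfb1, the isoform most studied in fibrosis, knock-out arrays 1 to 5 read 7.82, 7.94, 8.07, 8.04 and 7.68, and wild-type arrays 1 to 5 read 7.69, 7.66, 7.85, 8.07 and 8.02. These ranges almost coincided, and the difference was 0.052 (95% interval -0.18 to 0.28). Inhba, which encodes the activin A subunit, averaged 8.57 ± 0.21 over the knock-outs, against 8.42 ± 0.31 over the wild types (SD, n = 5 each). Inhbb, the activin B subunit, averaged 5.23 ± 0.19 over the knock-outs, against 5.20 ± 0.16 over the wild types (SD, n = 5 each).

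Among the BMP and GDF ligands, listed with the protease Bmp1, 7 of 10 had the higher mean in knock-out cells and 3 the lower (median 0.067), though Bmp7 turned to the higher side under quantile normalization and Gdf11 to the lower side when arrays were centred on their medians, and 7 of the 10 signs turned in some fit that left out 1 array, with 0 at an unadjusted p under 0.05. Bmp4, the ligand that patterns mesoderm and limb, read 7.08, 7.50, 6.67, 7.39 and 7.59 on knock-out arrays 1 to 5, and 7.23, 7.14, 7.31, 7.003 and 7.09 on wild-type arrays 1 to 5. The wild-type arrays sat close together inside the knock-out range, with knock-out array 3 below and arrays 2, 4 and 5 above all of them. The SD was 0.37 in the knock-out and 0.12 in the wild type, and the means differed by 0.092 (exact permutation p = 0.619). Bmp6 read 3.999, 4.01, 4.10, 3.70 and 3.60 in the knock-out, and 3.53, 3.62, 3.94, 3.64 and 3.80 in the wild type. These levels were close to the array medians, which Bmp6 exceeded on 4 of 10 arrays, and the difference was 0.18 ± 0.11 (SE; limma adjusted p = 0.842).

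Bmp2, a strong inducer of bone and cartilage, read 5.36, 4.06, 4.12, 4.08 and 5.02 on knock-out arrays 1 to 5, against 4.55, 4.33, 4.53, 4.16 and 4.68 on wild-type arrays 1 to 5. Knock-out arrays 1 and 5 stood above all others and the remaining knock-outs below all wild-type arrays. Bmp5, mutated in short-ear mice, gave 5.98, 5.13, 4.43, 4.78 and 5.96 in the knock-out, against 5.62, 5.36, 5.15, 4.72 and 4.77 in the wild type. Knock-out arrays 1 and 5 were again the highest, and array 3 the lowest. Gdf6, a BMP-family ligand active in joint formation, gave 3.19, 3.43, 3.90, 3.55 and 3.41 in the knock-out and 3.11, 3.29, 3.19, 3.58 and 4.40 in the wild type. Wild-type array 5 alone exceeded its array median. The other ligands differed by -0.040 (Gdf10), -0.0019 (Bmp7), 0.012 (Gdf11), 0.057 (Bmp3) and, for the procollagen and chordin protease Bmp1, 0.12.

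Of the 12 receptors, 9 had the lower mean in knock-out cells and 3 the higher (median -0.050), though Tgfbr1 turned to the higher side under quantile normalization and Tgfbr2 to the lower side when arrays were centred on their medians, and 4 of the 12 signs turned in some fit that left out 1 array. The activin type II receptors differed in opposite directions. Acvr2a read 6.45, 6.10, 6.50, 6.29 and 6.30 on knock-out arrays 1 to 5, and 6.51, 6.75, 6.51, 6.44 and 6.41 on wild-type arrays 1 to 5. Every knock-out value but those of arrays 1 and 3 lay below all wild-type values, and the difference was -0.20 ± 0.095 (SE; limma adjusted p = 0.830). Acvr2b read 3.95, 4.15, 4.54, 4.26 and 4.23 in the knock-out, and 3.80, 3.90, 3.93, 3.96 and 4.27 in the wild type. The groups overlapped through wild-type array 5 and knock-out array 1, and the difference was 0.25 ± 0.12 (SE; exact permutation p = 0.0952; limma p = 0.0477, adjusted p = 0.830). Neither difference passed the test.

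Acvr1, the BMP type I receptor mutated in fibrodysplasia ossificans progressiva in humans, had the narrowest spread within genotypes of the 50 genes. It read 6.56, 6.52, 6.46, 6.55 and 6.47 on knock-out arrays 1 to 5, and 6.71, 6.75, 6.61, 6.65 and 6.53 on wild-type arrays 1 to 5. Only wild-type array 5 fell among the knock-out values. The difference was -0.14 ± 0.070 (SE; exact permutation p = 0.0238; limma adjusted p = 0.835). Tgfbr3, the co-receptor betaglycan, read 5.73, 5.64, 4.93, 5.34 and 5.67 in the knock-out, and 5.92, 5.67, 5.65, 5.57 and 5.74 in the wild type. Knock-out array 3 stood well below the rest, and the difference was -0.25 ± 0.14 (SE; exact permutation p = 0.183).

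Bmpr2, the main BMP type II receptor, read 8.94, 8.89, 9.08, 9.13 and 8.94 on knock-out arrays 1 to 5, and 8.89, 8.89, 8.81, 8.99 and 8.91 on wild-type arrays 1 to 5. Knock-out arrays 3 and 4 lay above the wild-type range, and the difference was 0.098 (95% interval -0.062 to 0.26). Tgfbr2, the type II receptor for TGF-beta, read 7.50, 7.28, 6.80, 7.47 and 7.80 in the knock-out, and 7.54, 7.47, 7.33, 7.13 and 7.33 in the wild type. Its highest and lowest values were both on knock-out arrays, and the means differed by 0.0079 (95% interval -0.32 to 0.34). The remaining type I receptors differed by -0.0097 (Tgfbr1), -0.097 (Acvr1b), -0.052 (Acvrl1), -0.036 (Bmpr1a) and -0.048 (Bmpr1b), and the endothelial co-receptor endoglin, Eng, by -0.10.

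Among the Smad genes, 6 of 8 had the lower mean in knock-out cells (median -0.045), joined by Smad2 and Smad4 when arrays were centred on their medians, and 4 of the 8 signs turned in some fit that left out 1 array. Smad5 had the smallest p of all 50 genes. Smad5, a transducer of BMP receptors, read 6.06, 6.13, 5.95, 5.88 and 5.87 on knock-out arrays 1 to 5, and 6.21, 6.20, 6.29, 6.36 and 6.08 on wild-type arrays 1 to 5. The groups overlapped only through wild-type array 5, which lay between knock-out arrays 1 and 2. The difference was -0.25 ± 0.081 (SE; 95% interval -0.42 to -0.075; exact permutation p = 0.0159; limma p = 0.00872, adjusted p = 0.821). The other BMP Smads differed by less, -0.076 for Smad1 and -0.034 for Smad9.

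Smad3, the transducer of TGF-beta that binds DNA directly, read 7.43, 7.37, 7.11, 7.42 and 7.32 on knock-out arrays 1 to 5, and 7.25, 7.55, 7.40, 7.41 and 7.33 on wild-type arrays 1 to 5. Apart from knock-out array 3, the lowest, and wild-type array 2, the highest, the values intermingled (difference -0.057, 95% interval -0.24 to 0.13). Smad2 and the common partner Smad4 were nearly level, with differences of 0.0022 (95% interval -0.15 to 0.16) and 0.0035 (95% interval -0.16 to 0.17). The inhibitory Smad7, which targets receptors for degradation, read 7.04, 6.99, 6.81, 6.73 and 6.75 in the knock-out, and 6.92, 6.76, 7.08, 7.12 and 6.96 in the wild type. Knock-out arrays 4 and 5 were the lowest and wild-type arrays 3 and 4 the highest, and the difference was -0.10 ± 0.094 (SE; exact permutation p = 0.294). Smad6, which inhibits BMP signalling, is described below with the BMP targets.

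Of the secreted antagonists and the follistatin family, 5 of 6 had the higher mean in knock-out cells (median 0.073), but the sign turned for Fst, Fstl1 and Fstl3 in some fits that left out 1 array, and for Fstl1 with array weights. Chrd, which encodes the BMP antagonist chordin, read 3.97, 3.83, 3.85, 3.82 and 3.76 on knock-out arrays 1 to 5, and 3.49, 3.49, 3.66, 3.59 and 3.92 on wild-type arrays 1 to 5. All knock-out values lay above the wild-type values except that of wild-type array 5, which exceeded all knock-outs but array 1. The difference was 0.22 ± 0.091 (SE; exact permutation p = 0.0397; limma p = 0.0299, adjusted p = 0.821), at a level above the array median on only 2 of 10 arrays.

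Grem1, gremlin, an antagonist of BMP2 and BMP4 made by fibroblasts, read 7.85, 8.04, 7.20, 8.24 and 8.62 on knock-out arrays 1 to 5, and 7.47, 7.79, 7.98, 7.62 and 7.92 on wild-type arrays 1 to 5. Knock-out arrays 2, 4 and 5 lay above the wild-type range and array 3 below it, and the difference was 0.23 ± 0.21 (SE; exact permutation p = 0.397). Nog, noggin, stayed below the array median on all 10 arrays, at 3.46, 3.87, 3.53, 3.56 and 3.57 in the knock-out, and 3.60, 3.41, 3.39, 3.43 and 3.63 in the wild type. Knock-out array 2 was the highest. Fst, follistatin, which binds activin, read 8.76, 9.66, 7.66, 8.94 and 9.26 in the knock-out, and 8.86, 8.36, 8.97, 8.73 and 9.19 in the wild type. It had the widest spread within genotypes of the 50 genes, with knock-out array 2 highest and array 3 lowest. Of its relatives, Fstl3 differed by 0.041 and Fstl1 by -0.011. Fstl1 averaged 10.9 ± 0.19 over the knock-outs, against 10.9 ± 0.050 over the wild types (SD, n = 5 each).

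The 9 direct targets and intracellular inhibitors all had the lower mean in knock-out cells as deposited (median -0.071), but Id4, Bambi, Pmepa1 and Ski turned to the higher side under quantile normalization, Id1, Id2 and Atoh8 did so in some fits that left out 1 array, and none passed the test. Id1 and Id3 encode inhibitors of basic helix-loop-helix factors and respond directly to BMP Smads. Id3 read 8.71, 9.21, 8.36, 8.12 and 8.33 on knock-out arrays 1 to 5, and 8.97, 8.69, 8.67, 8.74 and 8.62 on wild-type arrays 1 to 5. Knock-out arrays 3, 4 and 5 lay below every wild-type array while array 2 lay above them all, and the difference was -0.19 ± 0.17 (SE; exact permutation p = 0.357). Id1 read 6.38, 7.02, 5.73, 5.86 and 6.42 in the knock-out, and 6.61, 6.12, 6.53, 6.33 and 6.28 in the wild type. Arrays 3 and 4 of the knock-out were again low and array 2 high (difference -0.091 ± 0.20, SE).

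Id2, a further Id family member, read 7.04, 7.61, 6.21, 6.56 and 7.26 on knock-out arrays 1 to 5, and 7.30, 7.01, 6.75, 7.18 and 6.90 on wild-type arrays 1 to 5. Smad6 read 4.12, 4.85, 3.65, 3.89 and 4.52 in the knock-out, and 4.31, 4.18, 4.21, 4.04 and 4.36 in the wild type. Atoh8, a helix-loop-helix factor gene induced by BMP in other cell types, read 4.23, 5.78, 4.18, 3.94 and 4.50 in the knock-out, and 4.68, 4.51, 4.53, 4.61 and 4.65 in the wild type. All 3 genes were highest on knock-out array 2 and lower on knock-out arrays 3 and 4 than on any wild-type array. The means differed by -0.092 for Id2, -0.011 for Smad6 and -0.071 for Atoh8. Of the inhibitors, the pseudoreceptor Bambi differed by -0.018, the receptor-Smad antagonist Pmepa1 by -0.0035, and the Smad corepressors Ski and Skil by -0.028 and -0.085, while Id4 differed by -0.014.

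**Figure D2:**
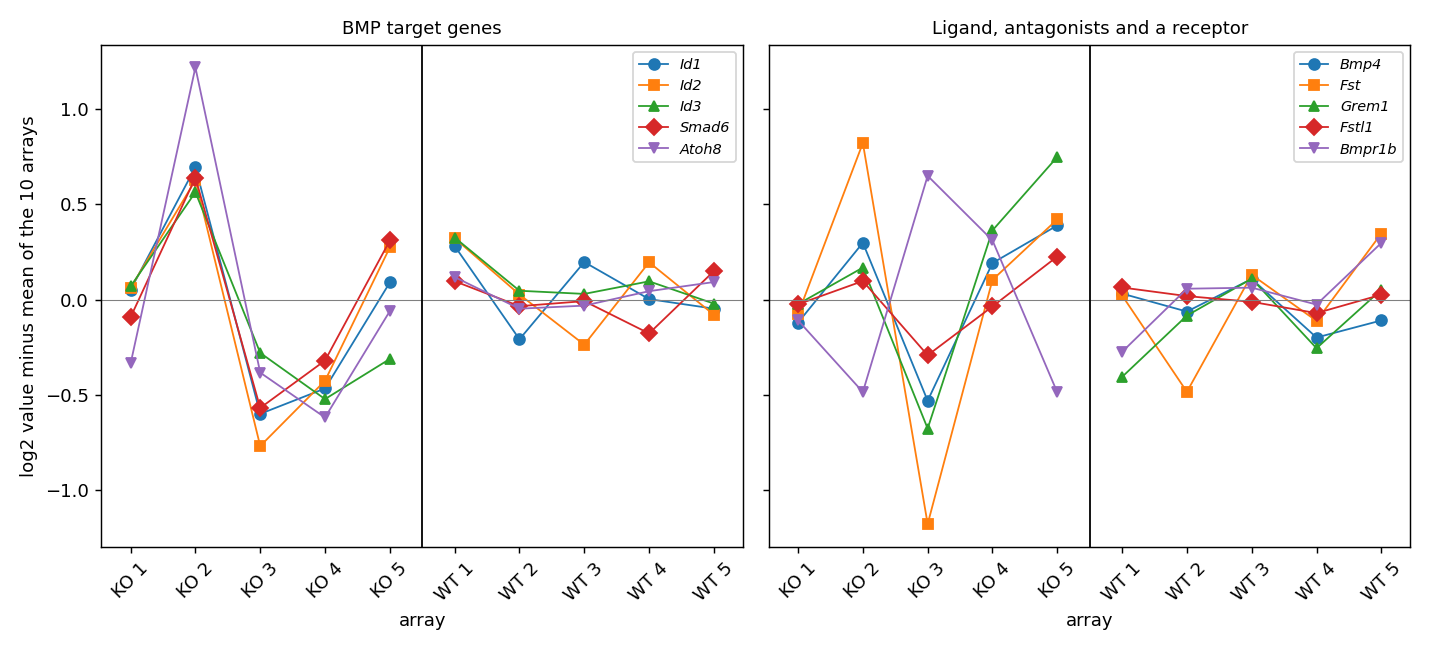
Log2 value minus the gene's mean over the 10 arrays (vertical, log2 units) on each array, Zbtb4 knock-out arrays (KO) to the left of wild-type arrays (WT). The left panel shows 5 of the 9 BMP targets and feedback inhibitors, those in the correlated pairs that passed. Of those not drawn, Id4 and Smad9 are highest on knock-out array 2, Smad7 on wild-type array 4 and Bambi on wild-type array 5. The right panel shows Bmp4, Fst, Grem1, Fstl1 and Bmpr1b. Lines only join the arrays of a genotype. The 5 targets on the left are highest on knock-out array 2, and Bmpr1b on the right is highest on knock-out array 3, at a log2 value of 4.61.

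The promoters of Id2, Id3, Smad6 and Atoh8 are shown. They were chosen because each gene had a correlation with another BMP target that passed its test, as given after the sequences. So did Id1, which had no entry among the promoter sequences. Among the genes shown, 3 of the 6 pairs passed. Each promoter shown is the 250 bases before the RefSeq transcription start in GRCm38.p6, written 5′ to 3′ on the gene's strand, at chr12:25096093-25096342 (minus strand) for Id2, chr4:136143572-136143821 (plus) for Id3, chr9:64022060-64022309 (minus) for Smad6 and chr6:72235578-72235827 (minus) for Atoh8. Capitals mark GGCGCC, a core that BMP Smads are known to bind, and the Smad-binding element GTCT, searched on both strands and so also marked where it reads AGAC in the window. The first of these motifs is its own reverse complement, and no marked matches overlap.
Id2: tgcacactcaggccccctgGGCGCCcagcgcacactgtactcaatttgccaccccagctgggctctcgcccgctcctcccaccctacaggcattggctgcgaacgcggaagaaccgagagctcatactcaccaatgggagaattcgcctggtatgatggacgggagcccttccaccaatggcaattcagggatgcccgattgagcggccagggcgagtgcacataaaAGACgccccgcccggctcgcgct
Id3: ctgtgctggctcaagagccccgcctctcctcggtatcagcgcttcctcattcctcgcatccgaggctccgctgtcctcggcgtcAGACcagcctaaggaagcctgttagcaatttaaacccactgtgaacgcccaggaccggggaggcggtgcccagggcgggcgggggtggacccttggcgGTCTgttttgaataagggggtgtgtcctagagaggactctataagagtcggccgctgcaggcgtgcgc
Smad6: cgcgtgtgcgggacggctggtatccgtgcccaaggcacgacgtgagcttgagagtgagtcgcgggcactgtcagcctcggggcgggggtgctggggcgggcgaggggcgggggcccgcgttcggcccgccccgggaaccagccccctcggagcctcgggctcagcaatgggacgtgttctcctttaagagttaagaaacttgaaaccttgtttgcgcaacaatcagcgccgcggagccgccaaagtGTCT
Atoh8: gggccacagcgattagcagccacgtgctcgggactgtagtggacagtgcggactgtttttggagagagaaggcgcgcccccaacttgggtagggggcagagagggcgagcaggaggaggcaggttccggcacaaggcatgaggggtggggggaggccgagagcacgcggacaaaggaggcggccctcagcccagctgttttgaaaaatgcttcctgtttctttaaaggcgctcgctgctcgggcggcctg
GGCGCC occurred in the Id2 window, starting 231 bases before the transcription start, and in 9.59% of 32851 promoters of the same length. The Smad-binding element, on either strand, occurred in the Id2, Id3 and Smad6 windows and in 82.9% of all promoters, and these letters are not in the Atoh8 window. All 4 windows were rich in CpG, the dinucleotide that carries DNA methylation, with 18 in Id2, 18 in Id3, 27 in Smad6 and 16 in Atoh8, against a median of 6 over all promoters. Methylation was not measured here.

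Some of the BMP targets and feedback inhibitors were correlated across the 10 arrays, namely pairs within Id1, Id2, Id3, Smad6 and Atoh8. Among the 36 pairs of Id1, Id2, Id3, Id4, Smad6, Smad7, Smad9, Bambi and Atoh8, 28 had a positive Pearson r and 8 a negative one. Absolute r was at least 0.8 in 7 pairs, where it was so in 0.671% of all pairs of genes. In these 7 pairs r passed a two-sided permutation test after Benjamini-Hochberg adjustment over the 36. Id1 correlated with Smad6 (r = 0.88, rho = 0.76; adjusted permutation p of r = 0.0159), with Id2 (r = 0.87, rho = 0.79; adjusted permutation p of r = 0.0159), with Atoh8 (r = 0.84, rho = 0.71; adjusted permutation p of r = 0.0159) and with Id3 (r = 0.83, rho = 0.65; adjusted permutation p of r = 0.0226). Only 0.0721% of all genes had an r with Id1 at least as high as that of Smad6, and 0.0992% as high as that of Id2. The other pairs were Id2 with Smad6 (r = 0.86), Id3 with Atoh8 (r = 0.83) and Smad6 with Atoh8 (r = 0.83). Smad6 and Atoh8 came close to the array medians (3.89 to 3.93) on some arrays. Smad6 read 3.65 and 3.89 on knock-out arrays 3 and 4, and Atoh8 read 3.94 on knock-out array 4. The r of Bambi ran from -0.52 (Smad9) to 0.048 (Smad7), and Smad7 had an r of 0.19 with Smad6 and -0.12 with Smad9.

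These calls depended on a few knock-out arrays. Without the 2 arrays farthest from the median of the first gene of each pair, r in the 7 pairs was 0.51 to 0.70. The count of pairs passing was 0 without knock-out array 2, 0 without array 3 and 0 without array 4, although the lowest r of the 7 pairs with any 1 array left out was 0.68 to 0.80. It was also 0 by Spearman's rho, for which 12 pairs had an unadjusted permutation p under 0.05 (15 for r). Taken as deviations from each genotype's mean and permuted within genotypes, r in the 7 pairs was 0.83 to 0.89, and again 0 pairs passed. Among the 6 arrays with low Y-linked levels, 0 pairs passed, and the other 4 arrays are too few for a correlation.

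**Figure D3:**
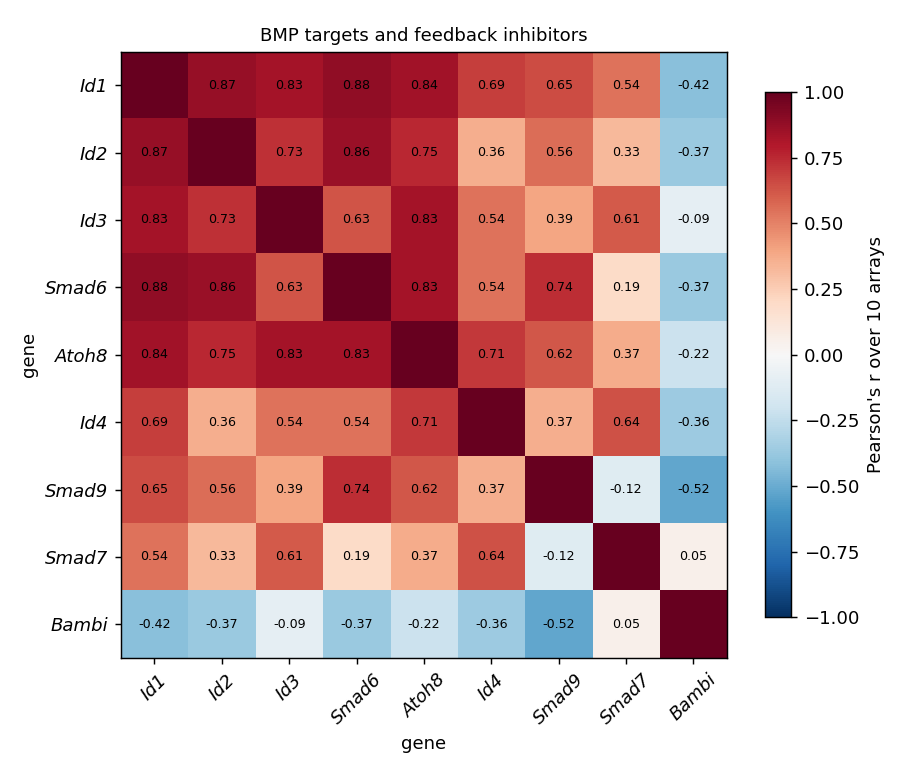
Pearson's r over the 10 arrays for each pair of 9 BMP targets and feedback inhibitors, as colour and number. The block formed by Id1, Id2, Id3, Smad6 and Atoh8 holds the 7 pairs that passed, with r from 0.83 to 0.88, and Bambi has negative r with 7 of the other 8 genes.

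Within genotypes, the spread of these genes was larger among knock-out arrays in 33 of 50 cases (all genes, 55.7%), with a median ratio of knock-out to wild-type SD of 1.20 (all genes, 1.09). The ratio was 9.93 for Atoh8 (SD 0.73 in the knock-out and 0.073 in the wild type), 3.83 for Fstl1, 3.82 for Smad6, 3.14 for Id3 and 3.13 for Bmp4, and it was 0.37 for Ski. Single arrays carried part of the high ratios. Without knock-out array 2 the ratio was 3.12 for Atoh8 (knock-out SD 0.23) and 1.81 for Id3. Without knock-out array 3 it was 2.45 for Fstl1 and 1.85 for Bmp4. For Ski the ratio fell further, to 0.20, without knock-out array 5. With each knock-out array left out in turn, the knock-out SD was the larger in 28 to 31 of the 50 genes. The lowest count, 28 without array 2, was close to the share of all genes over the full set of arrays (55.7%). The share of all genes with arrays left out was not computed. The 6 genes with the largest spread within genotypes were Fst, Bmp5, Atoh8, Bmp2, Id2 and Gdf6, and for Gdf6 alone among them the wild type had the larger SD.

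**Figure D4:**
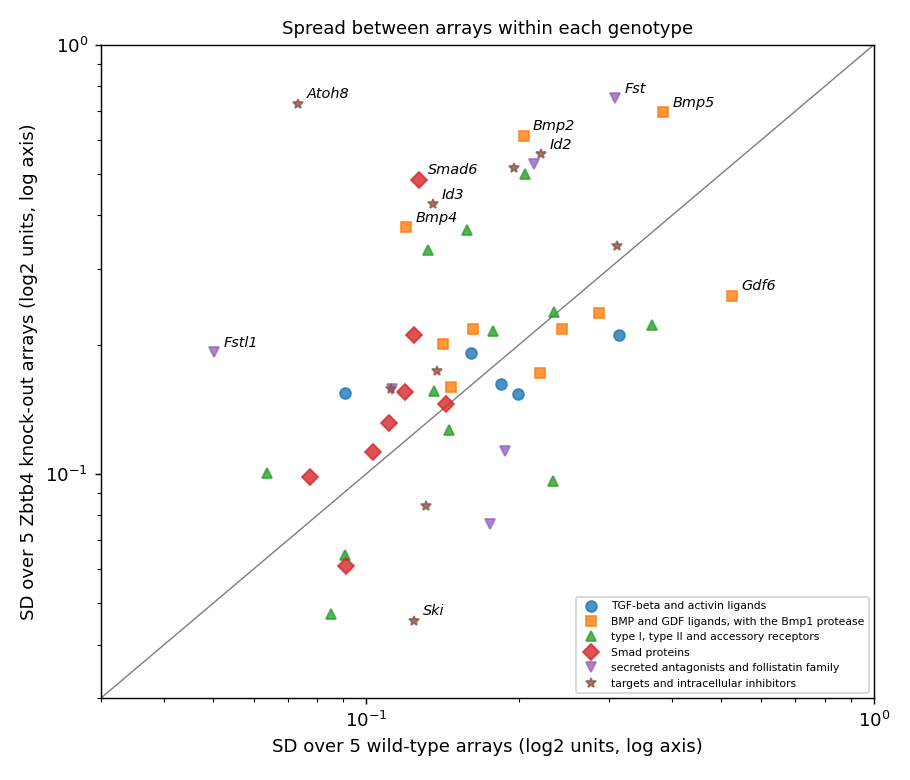
SD over the 5 Zbtb4 knock-out arrays (vertical, log axis) against SD over the 5 wild-type arrays (horizontal, log axis) for each of the 50 genes, marked by role; the line marks equal SD. Atoh8 lies farthest above the line, at 0.73 against 0.073 (0.23 without knock-out array 2), and 33 of the 50 genes lie above it (all genes, 55.7%).

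Much of this spread fell on knock-out arrays 2 and 3. Array 2 held the highest of the 10 values for 12 of the 50 genes, or 24% (9.90% of all genes), namely Tgfb3, Inhba, Bmp3, Smad6, Smad9, Nog, Fst, Id1, Id2, Id3, Id4 and Atoh8. Array 3 held the lowest value for 14, or 28% (11.4% of all genes), namely Bmp4, Bmp5, Gdf10, Tgfbr2, Tgfbr3, Acvr1, Eng, Smad3, Smad6, Grem1, Fst, Fstl1, Id1 and Id2. Knock-out array 3 also had the highest mean of 10 macrophage and leukocyte markers, 5.26, whereas the remaining knock-outs gave 4.04 to 4.69 and the wild-type arrays 4.28 to 4.56. The log2 of their summed signal ran from 7.63 to 9.56 on knock-out arrays and from 8.05 to 8.66 on wild-type arrays, 1 of the 10 markers was below the array median on all arrays, and 9 of the 10 had the higher mean in knock-out cells. Their part in the spread of the TGF-beta and BMP genes was not tested.

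**Figure D5:**
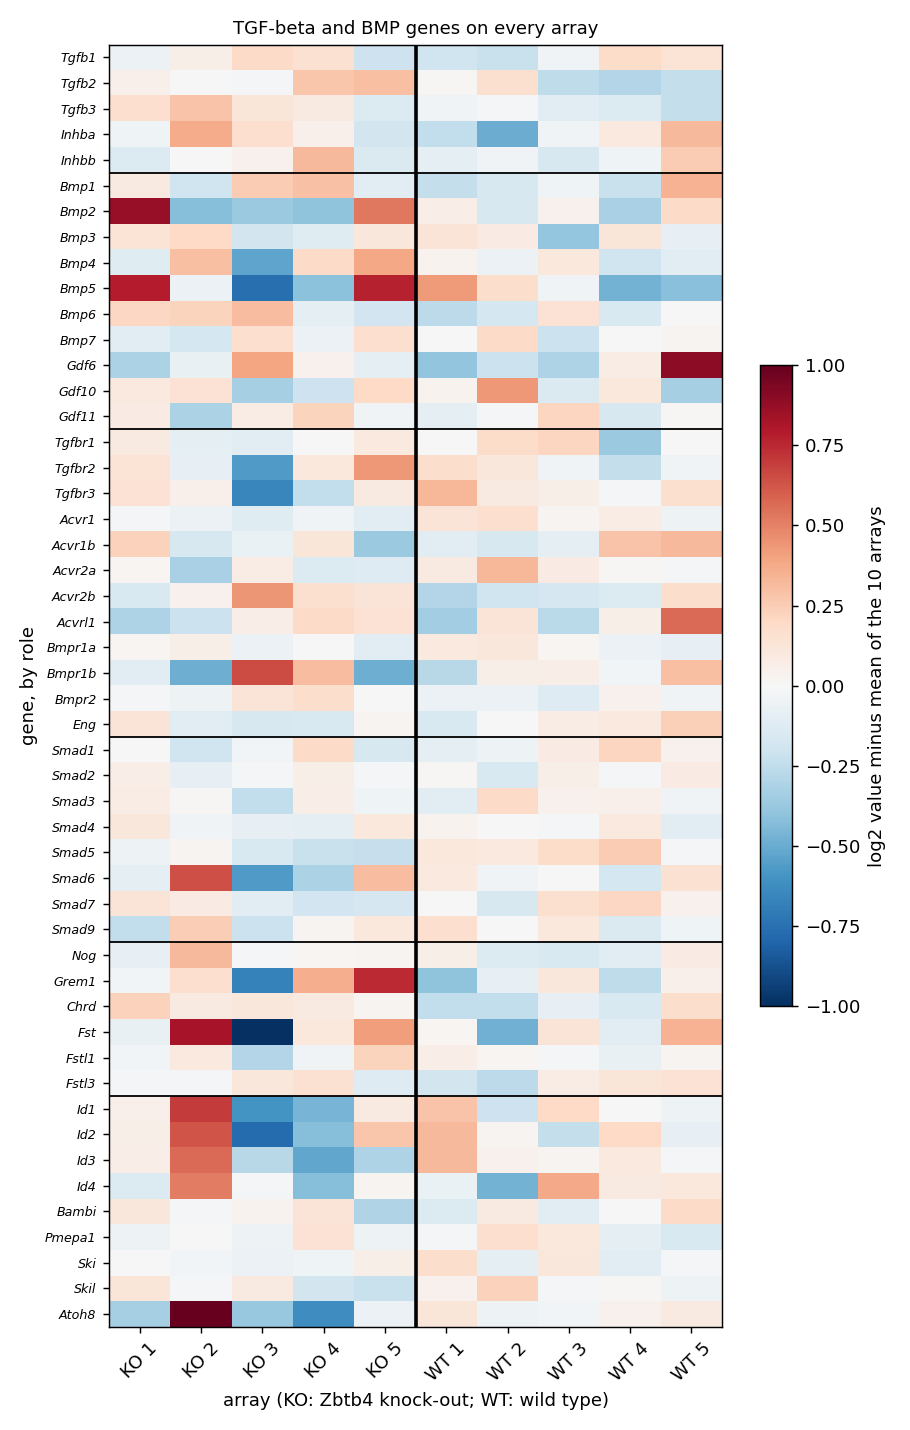
Deviation of each of the 50 genes from its own mean over the 10 arrays (colour, log2 units, scale ending at 1 on either side), with Zbtb4 knock-out arrays to the left of wild-type arrays and genes grouped by role. Knock-out array 2 is high for the Id genes, Smad6, Atoh8 and Fst, and knock-out array 3 is low for Bmp4, Grem1, Fst, Tgfbr2 and Tgfbr3.

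The other genes of the pathway, 88 in 6 lists, gave the same count of calls. With limma 0 of 88 had an adjusted p under 0.05 and 3 an unadjusted p under 0.05 (all genes, 5.98%). The difference was higher in knock-out cells for 48 and lower for 40, with a median of 0.011. Of 23 TGF-beta response genes of fibroblasts, 15 were on the higher side and 8 on the lower. Their median difference was 0.015, and differences ran from -0.30 (Tgfbi) to 0.37 (Cnn1). The 2 with the smallest p, both on the higher side, are given next. Nox4, an NADPH oxidase induced by TGF-beta in fibroblasts, averaged 6.40 ± 0.086 over the knock-outs, against 6.17 ± 0.098 over the wild types (SD, n = 5 each). The difference was 0.23 (limma adjusted p = 0.821). Its arrays did not overlap between genotypes, which held for 1 of the 88 (all genes, 0.987%). Cnn1, the contractile protein calponin, averaged 10.8 ± 0.23 over the knock-outs, against 10.5 ± 0.27 over the wild types (SD, n = 5 each; difference 0.37; limma adjusted p = 0.821).

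Among 7 other receptors and co-receptors, Acvr1c differed by 0.28 and the BMP co-receptor gene Hjv by 0.098. Acvr1c, Hjv, Sost, Bmp15 and Inhbc were below the median of every array. The list of 11 other extracellular antagonists also holds Tll1 and Tll2, protease genes related to Bmp1 rather than antagonists. Of these 11 genes, 9 were on the higher side, Tll1 (0.024) and Tll2 (0.10) among them. Sost, sclerostin, had a log2 difference of 0.30 and Chrdl2, a chordin relative, one of 0.14. Of 17 other ligands, 10 were on the higher side, and Bmp15 and Inhbc differed by 0.18 and 0.17. The 14 latency and activation genes were split 7 and 7, and log2 differences were 0.15 for Ltbp3, which encodes a latent TGF-beta binding protein, and -0.14 for Nrros, which anchors latent TGF-beta on microglia and macrophages. Of 17 other intracellular regulators, 13 were on the lower side, and log2 differences were -0.17 for Tab1, a partner of the kinase TAK1, and -0.14 for Strap, a receptor-associated protein. None of these genes passed the test, and the limma adjusted p of every one was 0.821 or above.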

How the data were processed

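Total RNA of the 10 samples was, per the labels, biotin-labelled and hybridised to one-colour Affymetrix arrays. The authors deposited 1 log2 value per probe set and array, with the log2 scale judged from the range; background correction, summarisation and normalization are not given in the sources used here, and no background level came with the values. Of 41345 probe sets, 23521 had 1 gene symbol in the platform annotation, 1814 had several and 16010 had none, and only the first kind was used. A gene was read by its probe set with the highest mean over the 10 arrays, leaving 22180 genes.

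Differences, knock-out minus wild type, were fitted over all genes with lmFit and eBayes (limma 3.58.1, R 4.3.3) without covariates, and adjusted by Benjamini-Hochberg over all genes (threshold 0.05). For single genes, all 252 splits of the arrays gave an exact permutation p (two-sided). Correlations were tested with 100000 permutations. The scripts were tested on simulated data.

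The genes and lists were chosen with earlier results of these data known. Every measured gene of the list is named. Array values are given for Zbtb4, the 12 genes with the smallest limma p, Tgfb1, Tgfbr2, Bmp4, Bmpr2, Smad3, Smad7, Id1, Id3 and Grem1, and, as an addition after the values were seen, Id2, Smad6, Atoh8, Fst, Bmp2, Bmp5, Gdf6 and Bmpr1b. The 6 genes with the largest spread and the 2 smallest p of each pathway list are also named. Promoter sequences are RefSeq's (GRCm38.p6), with entries for 33 of the genes; those printed were chosen after the correlations were seen. Alternatives covered normalization, dim genes, probe sets, the variance model, array weights, a replicate block, Y-linked level and leaving out arrays.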

Additional observations from a re-analysis of the deposited data

Results flagged for a closer look

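In 102 groups of 5 arrays tested for a single distant value (the 50 genes and Zbtb4 in each genotype), 2 had one by Dixon's test, which chance flags in about 1 in 20 groups. Nog, noggin, read 3.869 on knock-out array 2, while the other knock-out arrays read 3.461 to 3.571, all below the array medians. Pmepa1, which encodes a Smad-sequestering membrane protein, read 8.815 on knock-out array 4, while the other knock-out arrays read 8.618 to 8.667.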

How the results depend on the processing

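The count of 0 TGF-beta and BMP genes past the threshold stood under all 19 settings tried and at a threshold of 0.1, with the smallest adjusted p between 0.589 (without knock-out array 1) and 0.951 (without wild-type array 3); the wider pathway count of 0 stood likewise. At an unadjusted p under 0.05, there were 1 to 6 of the 50 genes across settings, beside 4.86% to 7.82% of all genes tested. Over all genes the count was 0, with 0 to 1 when arrays were left out singly, the 1 arising without wild-type array 5. The labels do not say that the replicate numbers pair the samples, and the samples were not treated as paired. Arrays of the same number shared a high or low Y-linked level in 5 of 5 cases, but deviations of same-numbered arrays correlated at 0.165, -0.045, -0.0041, -0.013 and 0.059, 2 of 5 knock-out arrays correlated best with their own number, and with the replicate number as a block 0 of the 50 genes passed and 4 had an unadjusted p under 0.05, beside 1295 of all genes (5.84%).

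The number of BMP target pairs that passed, 7 as reported, was 12 after quantile normalization, 0 for deviations from genotype means, 0 by Spearman's rho, 0 in the 6 arrays with low Y-linked levels, 0 without knock-out arrays 2 and 3, and 0 to 10 when arrays were left out singly. The low-Y subset, the omission of knock-out arrays 2 and 3, the SDs without single arrays and the test of all pairs were chosen after seeing the data. The causes of these shifts were not tested. The subsets also hold fewer arrays.

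Of 948 single-gene differences under alternatives, 853 kept the reported sign and 95 turned, none of them past the threshold; 24 genes never turned, and the largest reported difference among the 26 that did was 0.13 (Bmp5). Quantile normalization gave 0.0035 for Bmp7, 0.016 for Tgfbr1, 0.0089 for Id4, 0.017 for Bambi, 0.0063 for Pmepa1 and 0.0039 for Ski. Centring on medians gave -0.0003 for Gdf11, -0.0048 for Tgfbr2, -0.011 for Smad2 and -0.0092 for Smad4. Array weights gave 0.016 for Bmp7, -0.0045 for Smad4, 0.060 for Gdf6, 0.019 for Acvrl1, 0.018 for Smad6 and 0.0034 for Fstl1. With arrays left out singly the differences spanned zero for Bmp7 (-0.056 to 0.047), Tgfbr1 (-0.10 to 0.042), Id4 (-0.14 to 0.090), Bambi (-0.055 to 0.054), Pmepa1 (-0.041 to 0.037), Ski (-0.058 to 0.012), Gdf11 (-0.042 to 0.092), Tgfbr2 (-0.099 to 0.15), Smad2 (-0.035 to 0.023), Smad4 (-0.025 to 0.028), Gdf6 (-0.12 to 0.20), Acvrl1 (-0.15 to 0.083), Smad6 (-0.17 to 0.13), Fstl1 (-0.069 to 0.061), Bmp2 (-0.13 to 0.19), Bmp5 (-0.051 to 0.33), Smad9 (-0.099 to 0.023), Atoh8 (-0.38 to 0.075), Bmpr1b (-0.22 to 0.068), Fst (-0.16 to 0.34), Gdf10 (-0.13 to 0.064), Id1 (-0.28 to 0.048), Id2 (-0.26 to 0.088), Inhbb (-0.046 to 0.099), Fstl3 (-0.018 to 0.082) and Bmp3 (-0.034 to 0.11).

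The number of arrays limits precision: half-widths of the 95% intervals ran from 0.15 to 0.63. The level at which a value is background is not known, which bears on Nog, Gdf6, Chrd, Bmp6, Bmp3, Bmpr1b, Acvr2b and Smad6, each at or below the array median on at least 1 array. Atoh8, at 3.94 on knock-out array 4, also came close to the array medians.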

Other observations

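High correlations were also found outside the BMP targets, without passing a test. Of all 1225 pairs among the 50 genes, examined after the data were seen, 27 (2.20%) had an absolute Pearson r of at least 0.8, 18 positive and 9 negative, against 0.671% of all gene pairs; 20 of the 27, 11 positive and 9 negative, lay outside the BMP target pairs. None passed a permutation test adjusted over the 1225 (134 had an unadjusted p under 0.05), so these are descriptions. Tgfb1 and Fstl3, a follistatin-like antagonist, had r = 0.92 (rho = 0.84; adjusted permutation p = 0.231), and r = 0.89 without the 2 arrays farthest from the Tgfb1 median. Tgfb1 had r = 0.81 with Inhba and r = -0.85 with Bmp5. Bmp4 had r = 0.86 with its antagonist gene Grem1 and 0.84 with Fst, which were 0.60 and 0.64 without the 2 farthest arrays.

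The type I BMP receptor gene Bmpr1b ran opposite to Id2 (r = -0.92, rho = -0.94; permutation p = 0.00015, adjusted p = 0.184; r = -0.91 without the 2 farthest arrays). Bmpr1b read 3.85, 3.48, 4.61, 4.27 and 3.48 on knock-out arrays 1 to 5, and 3.69, 4.02, 4.02, 3.94 and 4.26 on wild-type arrays 1 to 5. Its level exceeded the array median on 6 of 10 arrays. It was highest on knock-out array 3, where Id2 was lowest, and lowest on knock-out arrays 2 and 5.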
